A study of Mus musculus with 3 samples.

Results

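The cells described here were the basophils of mouse dorsal skin in a single-cell RNA-seq study of chemotherapy-induced alopecia (CIA), the hair loss that follows anticancer drugs. A barcode counted as a basophil if it held at least 3 UMIs of Mcpt8, a serine protease of the mouse basophil granule, where a UMI (unique molecular identifier) stands for 1 captured RNA molecule. It also had to hold no more than 5 UMIs in all of the mast cell proteases Cma1, Mcpt4 and Tpsb2 and fewer than 10 of the keratins Krt5 and Krt14. Barcodes were kept beforehand if they had at least 500 detected genes and at most 15% of UMIs from mitochondrial genes. Of 45846 kept barcodes, 199 met the rule. They were 88 in the CIA+VFX library, 109 in the CIA library and 2 in the Cont library.

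The CIA+VFX library came from CIA model mice given venlafaxine (VFX), an antidepressant that blocks the reuptake of serotonin and noradrenaline. The CIA library came from CIA model mice without it, and the Cont library from mice given vehicle alone. All mice were C57BL/6 females of 9 weeks whose back hair had been pulled out with wax, so depilation was shared by all 3 groups. Skin was pooled over mice within each group, digested with collagenase D, freed of red cells by lysis and of debris on Percoll, and sequenced from the 3′ ends of transcripts. The anticancer drug, the doses, the number of mice pooled and the day of sampling were not stated. Each group is 1 library, so no spread between animals could be measured, conditions were compared without a p-value, and every 95% interval below covers counting error only.

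Basophils are rare granulocytes that arise in the bone marrow, circulate in blood and enter inflamed skin. They carry the high-affinity IgE receptor, built from the chains encoded by Fcer1a, Ms4a2 and Fcer1g, and release histamine, proteases, the type 2 cytokines IL-4 and IL-13 and chemokines. The transcription factor GATA2, which binds the letters GATA, is needed for basophil and mast cell development, and IL-3 expands the lineage.

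The promoters of 5 genes that define or divide these cells are shown to place the measurements below on their loci. Each run is the 250 bases before the annotated start, 5′ to 3′ on the gene's strand, from RefSeq on GRCm38.p6. Capitals mark a GATA motif, searched as AGATAA or TGATAA on both strands, so that TTATCT and TTATCA are matches on the opposite strand.
Mcpt8 (chr14:56085198-56085447, minus strand): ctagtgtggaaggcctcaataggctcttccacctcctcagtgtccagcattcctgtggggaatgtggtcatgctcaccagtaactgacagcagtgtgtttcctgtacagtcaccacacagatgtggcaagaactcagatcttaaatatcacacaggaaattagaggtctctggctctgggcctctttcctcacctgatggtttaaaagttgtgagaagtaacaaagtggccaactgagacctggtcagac
Prss34 (chr17:25298144-25298393, plus strand): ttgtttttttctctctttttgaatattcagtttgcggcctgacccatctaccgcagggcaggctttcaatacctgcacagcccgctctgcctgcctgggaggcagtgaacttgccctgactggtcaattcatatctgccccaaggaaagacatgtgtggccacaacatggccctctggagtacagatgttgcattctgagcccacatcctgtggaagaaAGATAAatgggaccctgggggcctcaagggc
Fcer1a (chr1:173227230-173227479, minus strand): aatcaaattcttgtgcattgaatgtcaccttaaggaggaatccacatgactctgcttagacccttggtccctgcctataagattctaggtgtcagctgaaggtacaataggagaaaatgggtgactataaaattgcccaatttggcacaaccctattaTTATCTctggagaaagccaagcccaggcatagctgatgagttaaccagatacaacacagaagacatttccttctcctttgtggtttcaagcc
Ms4a2 (chr19:11623720-11623969, minus strand): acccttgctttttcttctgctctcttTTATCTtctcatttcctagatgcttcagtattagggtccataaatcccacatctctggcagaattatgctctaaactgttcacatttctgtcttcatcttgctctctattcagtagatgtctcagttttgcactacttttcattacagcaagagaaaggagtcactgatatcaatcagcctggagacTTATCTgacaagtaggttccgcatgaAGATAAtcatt
Cd200r3 (chr16:44943428-44943677, plus strand): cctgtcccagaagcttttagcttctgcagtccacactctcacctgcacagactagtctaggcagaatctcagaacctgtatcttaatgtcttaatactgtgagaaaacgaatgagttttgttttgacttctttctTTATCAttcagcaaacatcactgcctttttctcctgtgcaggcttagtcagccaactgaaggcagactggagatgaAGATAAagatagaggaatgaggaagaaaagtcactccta
The motif was present 3 times in the Ms4a2 window, 2 times in the Cd200r3 window and 1 time each in the Prss34 and Fcer1a windows, and these letters were not in the Mcpt8 window. Over all 32851 windows of this length 16.6% held it. By gene symbol the share was 18.8% of 27025, against 5 of the 15 basophil identity genes with a window (33.3%). A match describes these letters only.

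Genes of basophils that the rule did not use were present in most of these cells. Fcer1a, the IgE-binding chain, had a UMI in 71.6% of CIA+VFX basophils and 67.0% of CIA basophils, and Ms4a2, its signalling beta chain, in 69.3% and 64.2%. In keratinocytes of CIA+VFX, deeper cells that should lack both, each had a UMI in 0.0301% of cells at a median of 14290 UMIs. Cd200r3, an activating receptor of basophils and mast cells, was detected in 87.5% of CIA+VFX and 80.7% of CIA basophils. Defining genes of other granulocytes were close to absent. The mast cell genes Tpsab1, Mrgprb1 and Mrgprb2, the eosinophil genes Siglecf, Epx and Prg2 and the neutrophil genes Csf3r, Ly6g and Mmp8 had 0 UMIs in all 199 cells. Over the whole lists, summed levels in CIA+VFX, CIA and Cont basophils were 12.2, 16.5 and 321 CPM (UMIs scaled to a common total) for 7 mast cell markers. They were 2.03, 4.51 and 0 CPM for 8 eosinophil markers and 106, 116 and 481 CPM for 10 neutrophil markers. The mast cell list includes Cma1, Mcpt4 and Tpsb2, which the rule itself limited, so a low sum of that list was partly set in advance. The 2 Cont basophils held 6232 UMIs between them, so 1 UMI there equals 160.462 CPM.

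Total UMIs were 155210692 in CIA+VFX, 130557879 in CIA and 143164803 in Cont, over 16635, 16573 and 12638 kept barcodes. Basophils had a median of 4763, 4956 and 3116 UMIs, against 5754, 5301 and 7167 over all kept barcodes, and a median of 0.990%, 0.729% and 0.608% mitochondrial UMIs. Between 75 and 110 barcode sequences were shared between any pair of libraries, and 0 were basophils in both. Some basophils carried marker RNA of other cell types: 40 CIA+VFX, 47 CIA and 0 Cont basophils held at least 5 UMIs of another type's marker list. That number was 8, 12 and 0 once 6 genes were taken out of the lists, a choice made later. They were Ly6c2, Adgre1, Nkg7, Cxcr2, Lcn2 and Epcam, and not all of them were common in basophils. Ly6c2, known from monocytes, had a UMI in 59.1% of CIA+VFX and 38.5% of CIA basophils, and Nkg7, known from cytotoxic lymphocytes, in 18.2% and 48.6%. The macrophage and monocyte list summed to 1614 CPM in CIA+VFX, 1260 CPM in CIA and 0 CPM in Cont, with C1qc and Csf1r at 0 UMIs in CIA+VFX.

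Basophils were a larger part of the skin suspension in both CIA model libraries than in the Cont library, while the interval of the ratio of the CIA+VFX to the CIA share included 1. The share of kept barcodes was 0.529% in CIA+VFX (interval 0.424 to 0.651%), 0.658% in CIA (0.540 to 0.793%) and 0.0158% in Cont (0.00192 to 0.0572%). The CIA share was 41.6 times the Cont share (interval 11.2 to 348), and the CIA+VFX share was 33.4 times the Cont share (8.98 to 280). CIA+VFX over CIA gave 0.804, with an interval of 0.600 to 1.08. With at least 10 Mcpt8 UMIs required it gave 0.652, with an interval of 0.456 to 0.927 that leaves out 1. Among kept barcodes with a UMI of Ptprc, the pan-leukocyte gene CD45, the share was 1.44% in CIA+VFX, 1.40% in CIA and 0.0407% in Cont. Mast cells, the other histamine-storing cells of the skin, made up 0.216%, 0.151% and 0.0870% of kept barcodes. There were thus 2.44 basophils per mast cell in CIA+VFX and 4.36 in CIA, against 0.182 in Cont. Shares depend on what dissociation and the Percoll step recovered, and fewer cells cannot be told apart from fewer recovered cells.

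**Figure D1:**
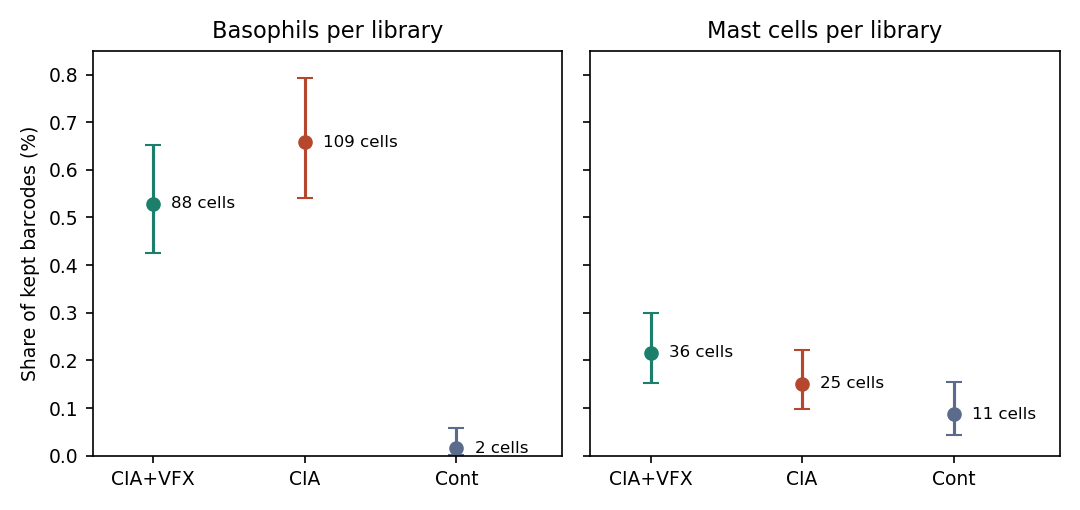
Share of kept barcodes (percent, y axis) that were basophils and mast cells in the CIA+VFX, CIA and Cont libraries, with exact binomial 95% intervals as bars. Basophils stand at 0.529%, 0.658% and 0.0158%, and the intervals of CIA+VFX and CIA overlap.

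How far the Cont library stood below the others depended on the use of Mcpt8 in the rule. The boundary itself was thinly filled in Cont: exactly 2 Mcpt8 UMIs, just outside the rule, were held by 13 kept barcodes in CIA+VFX, 8 in CIA and 1 in Cont, and exactly 3, just inside, by 4, 8 and 0. A different rule, chosen after these values were seen, asked for at least 1 UMI each of Cd200r3, Gata2 and Cyp11a1 in place of Mcpt8 and kept the mast cell and keratin limits. It found 98 barcodes in CIA+VFX, 99 in CIA and 7 in Cont, of which 74, 84 and 1 were also basophils by the Mcpt8 rule. By that rule the share was 0.589%, 0.597% and 0.0554%, so that CIA was 10.8 times Cont (interval 5.04 to 27.5) and CIA+VFX was 10.6 times Cont (4.97 to 27.1). CIA+VFX over CIA was 0.986 (0.738 to 1.32).

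The 3-gene rule alone found 24 CIA+VFX, 15 CIA and 6 Cont barcodes. Those of CIA+VFX and CIA held less RNA of the granule proteases Prss34 and Ctsg than the Mcpt8-chosen basophils. In Cont both genes were at 0 UMIs in either set. Mcpt8 under 3 UMIs follows from the choice. Prss34 went with Mcpt8 over cells, as given below, so its lower level is not independent of that choice. Cytokine RNA differed between the 2 sets gene by gene. Il1b, a proinflammatory cytokine, stood at 17253, 18821 and 15247 CPM in the barcodes of the 3-gene rule alone. Acod1, the enzyme that makes itaconate, stood at 8518, 5683 and 5868 CPM in them. Il4, a type 2 cytokine, stood lower there in 2 libraries, at 128 CPM in CIA+VFX (61.1 to 235) and 439 CPM in CIA (281 to 653). The Mcpt8-chosen basophils stood at 901 and 704 CPM. Cont went the other way, with 8 UMIs or 401 CPM (173 to 791) in its 6 barcodes, against 0 CPM in the Mcpt8-chosen basophils. Prss34, another basophil granule protease, stood at 12.8, 311 and 0 CPM, against 3762, 9326 and 0 CPM in the Mcpt8-chosen basophils. Kit, the stem cell factor receptor of mast cells, was at 0 UMIs in all 3 libraries. Barcodes with these 3 identity genes and under 3 Mcpt8 UMIs were thus 24 of 98 in CIA+VFX and 15 of 99 in CIA, against 6 of 7 in Cont. Mcpt8 itself, which the rule used, had a lowest, median and highest value of 3, 15 and 229 UMIs per basophil in CIA+VFX and 3, 24 and 643 in CIA. The 2 Cont basophils had 5 and 9.

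Several transcripts of the whole suspension came in large part from these few cells in the CIA+VFX and CIA libraries. In CIA+VFX and CIA, basophils were under 1% of kept barcodes but held 98.1% and 96.7% of all Prss34 UMIs and 75.2% and 97.9% of those of Ctsg, which encodes the neutral protease cathepsin G. They held 76.0% and 72.3% of the UMIs of Il4, the type 2 cytokine interleukin 4, against 0 of 73 UMIs in Cont. For Ccl3, a chemokine of monocytes and granulocytes, the part was 55.0% in CIA+VFX, 57.5% in CIA and 1.01% in Cont. For Hdc, histidine decarboxylase, which makes histamine, it was 38.2%, 50.9% and 1.84%. Basophils gave a smaller part of Il13 (24.9% and 28.9% in CIA+VFX and CIA, 0 of 758 UMIs in Cont), of Il1b (11.8% and 11.4%) and of Il6 (2.78% and 5.56%).

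Within basophils, the granule proteases Prss34 and Ctsg were lower in CIA+VFX than in CIA, while most identity genes stood close. Of 22 granule and protease genes 18 were measured, that is, had at least 50 UMIs over both libraries, and 1 was at least 2-fold higher (Stx11) in CIA+VFX. Besides Mcpt8, which the rule used, 2 were at least 2-fold lower, Prss34 and Ctsg. Over all 3071 measured genes 3.0% were at least 2-fold higher and 4.43% at least 2-fold lower. Of 18 other basophil identity genes 17 were measured, 0 higher and 1 lower, which was Prss34 again. Prss34 stood at 3762 CPM in CIA+VFX (1849 UMIs) and 9326 CPM in CIA (6202 UMIs), a log2 ratio of -1.31 (-1.39 to -1.23), and at 0 UMIs in Cont. Ctsg stood at 167 CPM in CIA+VFX and 967 CPM in CIA, a log2 ratio of -2.53 (-2.88 to -2.20), with 193 of the 643 CIA UMIs in 1 cell. Gzmb, the cytotoxic granule protease granzyme B, was nearer, at 2521 and 2971 CPM, and at 321 CPM in Cont. Mcpt8, a description since the rule used it, was at 5486, 11017 and 2246 CPM. Proteases of the chymase locus, where Mcpt8 lies on chr14, are close relatives, and reads shared between them could have affected their counts. Prss34 lies elsewhere, on chr17. Cpa3, carboxypeptidase A3, was at 649 CPM in CIA+VFX, 995 CPM in CIA and 802 CPM in Cont. Stx11, a fusion protein of granule release, went the other way, with 309 CPM in CIA+VFX and 135 CPM in CIA (log2 1.19, 0.81 to 1.59).

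The protease difference was one of how many cells carried the RNA and how much, not of a uniform level. Prss34 had a UMI in 31 of 88 CIA+VFX basophils (35.2%) and 61 of 109 CIA basophils (56.0%). After each cell was thinned to 1000 UMIs, these shares were 23.9% and 42.6%. Among keratinocytes of CIA+VFX 0.181% held one. The highest cell held 353 Prss34 UMIs in CIA+VFX and 954 in CIA, beside medians of 0 and 1. Cells with more Mcpt8 also held more Prss34 after thinning (Spearman rho 0.455 over 88 CIA+VFX cells and 0.643 over 108 CIA cells). These are descriptions over cells that share a library and were chosen on Mcpt8.

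Of 23 genes of the IgE receptor and its signalling 19 were measured, with 0 higher and 1 lower. Of the receptor chains, Fcer1a stood lower in CIA+VFX than in CIA and the other chains stood close. Fcer1a stood at 507 CPM in CIA+VFX (249 UMIs), 1022 CPM in CIA (680 UMIs) and 321 CPM in Cont, with a log2 ratio of CIA+VFX over CIA of -1.01 (-1.23 to -0.80). Ms4a2 stood at 350, 370 and 0 CPM, with a log2 ratio of -0.08 (-0.37 to 0.21) for the same pair. Fcer1g, the gamma chain shared with other Fc receptors, stood at 1420, 1574 and 2246 CPM. The transcription factor gene Gata2 was at 2102, 2179 and 802 CPM. Cyp11a1, a steroid-making enzyme known from basophils and type 2 lymphocytes, was at 1872, 2068 and 1284 CPM. Cd200r3 was at 796, 666 and 1284 CPM.

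**Figure D2:**
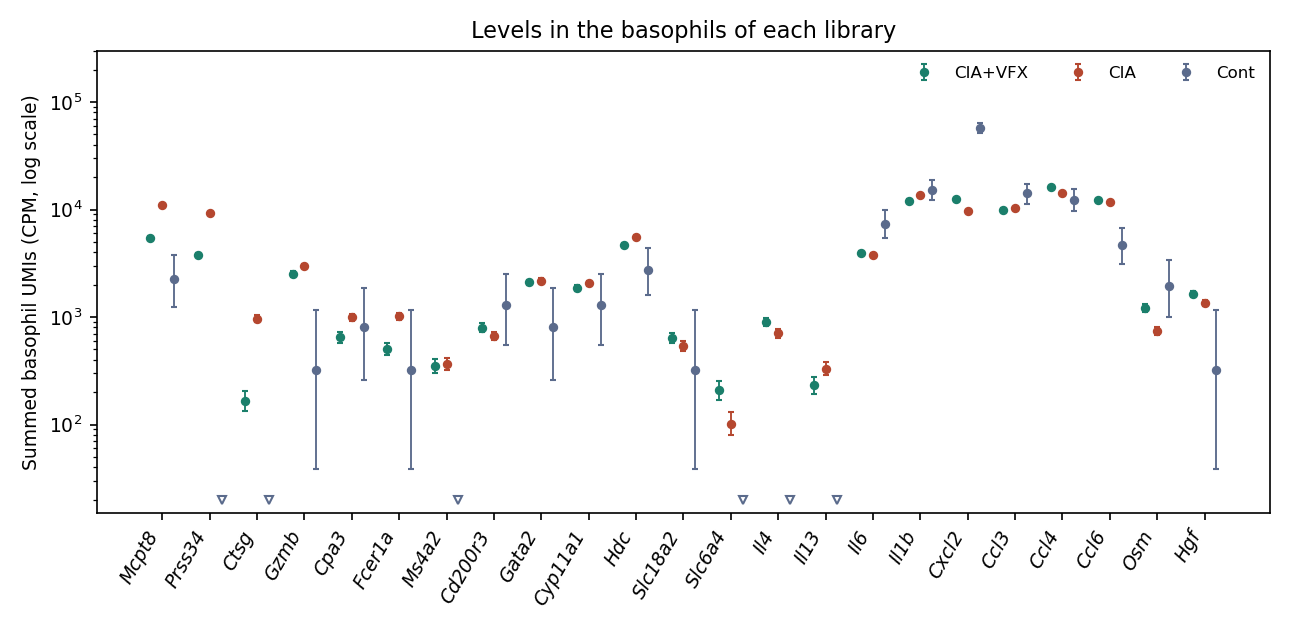
Summed levels of named genes in basophils (CPM, log axis) in the CIA+VFX, CIA and Cont libraries, with exact Poisson 95% intervals as bars and open triangles at the foot for 0 UMIs. Prss34, Ctsg and Fcer1a stand lower in CIA+VFX than in CIA, and Slc6a4 stands higher.

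Genes of amine handling bear on venlafaxine, whose targets are the serotonin transporter (Slc6a4) and the noradrenaline transporter (Slc6a2). Slc6a4 stood at 210 CPM in CIA+VFX basophils (103 UMIs), 102 CPM in CIA basophils (68 UMIs) and 0 UMIs in Cont basophils. The log2 ratio of CIA+VFX over CIA was 1.04 (0.58 to 1.5), and 17.5% of the CIA+VFX UMIs came from 1 cell. A UMI was present in 30.7% of CIA+VFX and 22.9% of CIA basophils, and in 13.6% and 9.26% after thinning. Keratinocytes, at a median of 14290 and 14180.5 UMIs, held one in 6.72% and 5.49% of cells, and macrophages in 0.219% and 0.139%. Mast cells held one in 75.0% and 56.0%, at 706 and 653 CPM. Basophils thus lay between these types. Slc6a2, the dopamine transporter gene Slc6a3 and the serotonin-making Tph1 and Ddc had 0 UMIs in all 199 basophils. Of 17 serotonin and adrenergic receptor genes, 0 reached the 50 UMIs over both libraries needed to count as measured, and of 15 amine handling genes 3 did.

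Histamine genes were less than 2-fold apart between CIA+VFX and CIA. Hdc stood at 4676 CPM in CIA+VFX, 5606 CPM in CIA and 2728 CPM in Cont, with a log2 ratio of CIA+VFX over CIA of -0.26 (-0.34 to -0.19). Slc18a2, the vesicular transporter that loads histamine and other amines into granules, stood at 639 and 543 CPM in CIA+VFX and CIA. Cont held 17 Hdc UMIs in 2 cells and 2 Slc18a2 UMIs in 1 cell.

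Basophils carried RNA of many secreted factors, and these were mostly close between CIA+VFX and CIA. Among chemokines, Ccl3 stood at 10007, 10413 and 14121 CPM in CIA+VFX, CIA and Cont, and Ccl4, its close relative, at 16126, 14163 and 12356 CPM. Ccl6, a monocyte attractant of mice, stood at 12211, 11769 and 4653 CPM. Cxcl2, a neutrophil attractant, stood at 12445, 9762 and 57606 CPM. Il1b was at 12097 CPM in CIA+VFX and 13704 CPM in CIA, Il6 at 3950 and 3752 CPM. Il4 was at 901 and 704 CPM, and Il13, its partner in type 2 responses, at 232 and 332 CPM. These were detected unevenly over cells: Il4 had a UMI in 58.0% of CIA+VFX and 60.6% of CIA basophils, with a highest cell of 120 and 60 UMIs beside a median of 1 in each. After thinning these shares were 30.7% and 26.9%, against 0.332% of CIA+VFX keratinocytes before thinning. Hgf, a growth factor for epithelial cells, was at 1638 CPM in CIA+VFX, 1344 CPM in CIA and 321 CPM in Cont. It had a UMI in 92.0% and 90.8% of CIA+VFX and CIA basophils (64.8% in each after thinning), against 1.12% of CIA+VFX keratinocytes.

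Of 32 secreted factors 19 were measured in CIA+VFX and CIA, and 1 was at least 2-fold higher and 1 lower in CIA+VFX. The median log2 ratio of the list was 0.29, beside -0.01 over all genes. The higher one was Lif, an IL-6 family cytokine, with 232 CPM in CIA+VFX and 110 CPM in CIA (log2 1.08, 0.64 to 1.52). The lower one was Tnf, tumour necrosis factor, with 46.8 and 107 CPM (log2 -1.19, -1.94 to -0.49), 46.5% of it in 1 CIA cell. Its direction did not hold: the log2 ratio was 0.15 (-0.84 to 1.11) without basophils that carried other types' RNA. That setting left out 40 CIA+VFX and 47 CIA basophils. With the 6 genes taken out of the marker lists, Tnf was not among the genes that reversed. Osm, another IL-6 family cytokine, was at 1211 and 741 CPM, and Areg, an epidermal growth factor receptor ligand, at 218 and 116 CPM.

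Receptors for the cytokines that drive basophils were measured in 15 of 22 cases, of which 1 was at least 2-fold higher and 0 lower in CIA+VFX (median log2 0.30). That gene was Il1rap, the shared subunit of the IL-1 and IL-33 receptors, with 85.5 CPM in CIA+VFX and 40.6 CPM in CIA (log2 1.07, 0.34 to 1.83). Il1rl1, the IL-33 receptor, was at 277 and 235 CPM, and Il18r1, an IL-18 receptor chain, at 556 and 411 CPM. Il3ra, the IL-3 receptor alpha chain, was at 112 and 120 CPM. The beta chains Csf2rb and Csf2rb2 are near-identical copies, so their 1638 and 883 CPM in CIA+VFX and 1292 and 591 CPM in CIA are uncertain one by one. Crlf2, the receptor for the skin cytokine TSLP, was at 120 and 173 CPM.

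Adhesion and homing genes had a median log2 ratio of 0.40 over 16 of 23 measured. Itgam, the integrin CD11b, was at 419 CPM in CIA+VFX and 238 CPM in CIA, and Itga2, the collagen-binding integrin CD49b used to recognise mouse basophils, at 218 and 138 CPM. MHC class II and costimulation genes were measured in 6 of 13 cases, with 3 higher and 0 lower, but 61.7% of the Cd74, 71.3% of the H2-Aa and 77.0% of the H2-Ab1 UMIs of CIA+VFX lay in 1 cell. Of 30 interferon-induced genes 9 were measured, with 0 higher and 2 lower: Ifi27l2a, with 78.4% of its CIA UMIs in 1 cell, and Bst2, at 38.7 CPM in CIA+VFX and 85.7 CPM in CIA. Transcription factors (19 of 29 measured) and genes of the IL-3 and STAT5 response (11 of 16) had 0 at least 2-fold apart, as did immediate early genes (22 of 26), eicosanoid synthesis (6 of 13), lipid and complement receptors (4 of 20) and apoptosis regulators (10 of 21). Of 25 p53 target genes 12 were measured, and the 1 past 2-fold was Gdf15, with 74.2% of its CIA UMIs in 1 cell.

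**Figure D3:**
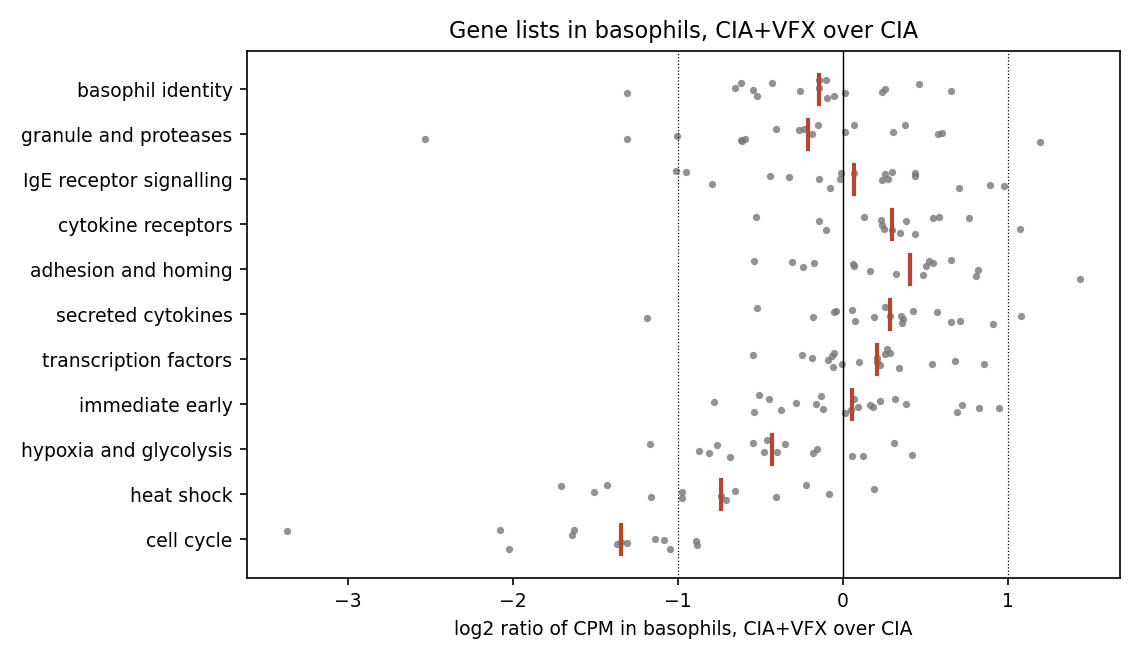
Log2 ratio of CIA+VFX over CIA in basophils (x axis) for the measured genes of the gene lists, 1 point per gene, with the list median as a line and dotted lines at 2-fold. The cell cycle genes all lie below 0, with a median of -1.34.

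Cell cycle genes stood lower in CIA+VFX than in CIA. Of 25 DNA replication and mitosis genes 13 were measured, 0 were at least 2-fold higher and 11 at least 2-fold lower, with a median log2 ratio of -1.34. Mki67, the Ki-67 proliferation antigen, was at 140 CPM in CIA+VFX and 356 CPM in CIA (log2 -1.34, -1.75 to -0.95). Mcm3, a subunit of the replicative helicase, was at 8.14 and 84.2 CPM (log2 -3.37, -5.30 to -1.94). Rrm2 and Tyms, which make DNA building blocks, had log2 ratios of -2.08 and -2.02. Over all kept barcodes the same pair of libraries ran the other way, at 0.34 for Mki67, 0.22 for Mcm3, 0.60 for Rrm2 and 0.42 for Tyms.

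Heat shock genes were measured in 13 of 15 cases, with 0 at least 2-fold higher, 4 lower and a median log2 ratio of -0.74. Dnajb1, a cochaperone of HSP70, was at 216 CPM in CIA+VFX and 484 CPM in CIA (log2 -1.17, -1.5 to -0.85). Hspb1, the small heat shock protein HSP27, was at 99.7 and 284 CPM (log2 -1.51, -2.00 to -1.05). Hsph1 and Hspa1a were the other lower genes, with log2 ratios of -1.71 and -1.43. A CIA cell with 13664 UMIs held 107 of the 322 Dnajb1 UMIs and 65 of the 189 Hspb1 UMIs. The same cell held 7 of the 84 Hsph1 and 15 of the 226 Hspa1a UMIs. With the top cell for each gene left out of each library, the log2 ratios were -1.35 for Hsph1, -1.58 for Hspa1a, -1.05 for Dnajb1 and -1.03 for Hspb1. With the basophils that carried other types' RNA left out, the list median was -0.27 with 0 genes higher and 1 lower, and Hspb1 was at 0.04. That setting left out 40 CIA+VFX and 47 CIA basophils. With the 6 genes taken out of the marker lists, Hspb1 was not among the genes that reversed. Of 22 genes of glycolysis and hypoxia 16 were measured, with a median of -0.43, 0 higher and 1 lower, the hexokinase gene Hk2 at 48.8 CPM in CIA+VFX and 110 CPM in CIA.

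Of all 3071 measured genes 92 were at least 2-fold higher and 136 at least 2-fold lower in CIA+VFX, 7.42% in all. The highest ratios were Cxcl3, a neutrophil attractant, with 220 CPM in CIA+VFX and 43.6 CPM in CIA (log2 2.33, 1.73 to 2.98), Thbs1, Gpcpd1, H2-Aa, Padi4 and Serpina3g. Gpcpd1, which splits glycerophosphocholine, was spread over 57 CIA+VFX and 26 CIA cells, with a log2 ratio of 1.85 (1.30 to 2.42). Thbs1, the matrix protein thrombospondin 1, had 44.3% of its CIA+VFX UMIs in 1 cell, and H2-Aa, an MHC class II chain, 71.3%. The lowest ratios were Pf4, C1qb, F13a1, Spc24, Ctsg and Dut. Pf4, C1qb and F13a1 are genes of platelets and macrophages, and 94.3%, 68.3% and 93.2% of their CIA UMIs lay in 1 cell each. Spc24, a kinetochore subunit, had a log2 ratio of -2.77 (-3.95 to -1.77) over 4 CIA+VFX and 23 CIA cells. Of 39 list genes past 2-fold in this pair, 11 had over 50% of the UMIs of the higher library in 1 cell.

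A smaller share of basophils carried cell cycle RNA in CIA+VFX than in CIA. A UMI of Mki67 or of Top2a, which untangles DNA in mitosis, was present in 14 of 88 CIA+VFX basophils (15.9%, 8.98 to 25.2%), 33 of 109 CIA basophils (30.3%, 21.8 to 39.8%) and 0 of 2 Cont basophils. The ratio of CIA+VFX over CIA was 0.525 (0.260 to 1.01). With every cell thinned to 1000 UMIs the shares were 5.68% and 17.6% and the ratio was 0.323 (0.0942 to 0.894). With at least 10 UMIs of the cell cycle list as the criterion, they were 11.4% and 24.8%, a ratio of 0.459 (0.198 to 0.978). The difference was thus past counting error by the last of these criteria and after thinning, and just within it by the first. Macrophages, at 17.4% and 15.3%, and T cells, at 30.7% and 29.9%, were close between CIA+VFX and CIA by the same UMIs, and after thinning stood at 4.53% and 4.74% and at 15.4% and 14.6%. Mast cells stood at 5.56% and 4.0%.

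Cycling basophils differed from the others in granule and cytokine RNA. In CIA, Prss34 was at 15904 CPM in cycling basophils and 2874 CPM in the others, and Ctsg at 1698 and 250 CPM. Fcer1a, at 1397 and 655 CPM, also stood higher in the cycling cells. Of the cytokine and amine genes, Il1b, Cxcl2, Hdc and Slc6a4 stood lower there: Il1b at 7292 CPM in cycling basophils and 19994 CPM in the others, Cxcl2 at 4534 and 14889 CPM, Hdc at 3833 and 7345 CPM and Slc6a4 at 27.3 and 176 CPM. Gata2 was at 1564 and 2782 CPM. Gzmb did not go with the other proteases, at 2032 CPM in cycling basophils and 3893 CPM in the others.

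In CIA+VFX the cycling class rested on few cells. Of the 14, 9 held only 1 or 2 UMIs of Mki67 and Top2a and under 10 of the cell cycle list, against 8 of 33 in CIA. Prss34 was at 6112 CPM in cycling and 3000 CPM in other basophils, but 616 of its 736 UMIs in cycling cells lay in 3 cells, 353 of them in 1, and 8 cells held 0. In CIA 5 of 33 held 0, with a median of 54 UMIs. Ctsg was at 316 and 119 CPM in CIA+VFX, Il1b at 8114 and 13390 CPM, Slc6a4 at 66.4 and 256 CPM and Gzmb at 1744 and 2773 CPM. Other cytokine genes did not follow Il1b: Il4 was at 1104 CPM in cycling and 836 CPM in other CIA+VFX basophils, against 580 and 825 CPM in CIA, and Ccl3 at 10281 and 9919 CPM, against 7741 and 13033 CPM in CIA. Cycling basophils were deeper, with a median of 5555 UMIs against 4716.5 in CIA+VFX and 9459 against 4294 in CIA. Over thinned CIA cells, Mcpt8 went with cell cycle UMIs (Spearman rho 0.353 over 108 cells), while in CIA+VFX rho was 0.120 over 88 cells.

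The protease difference between CIA+VFX and CIA moved with these cells. With cells that held a Mki67 or Top2a UMI left out, the log2 ratio of CIA+VFX over CIA was 0.06 for Prss34, -1.08 for Ctsg, -0.34 for Mcpt8 and -0.49 for Fcer1a. It was 0.54 for Slc6a4, 0.31 for Lif, 0.92 for Stx11 and 1.20 for Gpcpd1. Prss34 thus no longer stood lower in CIA+VFX once cycling basophils were left out, while Ctsg did.

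**Figure D4:**
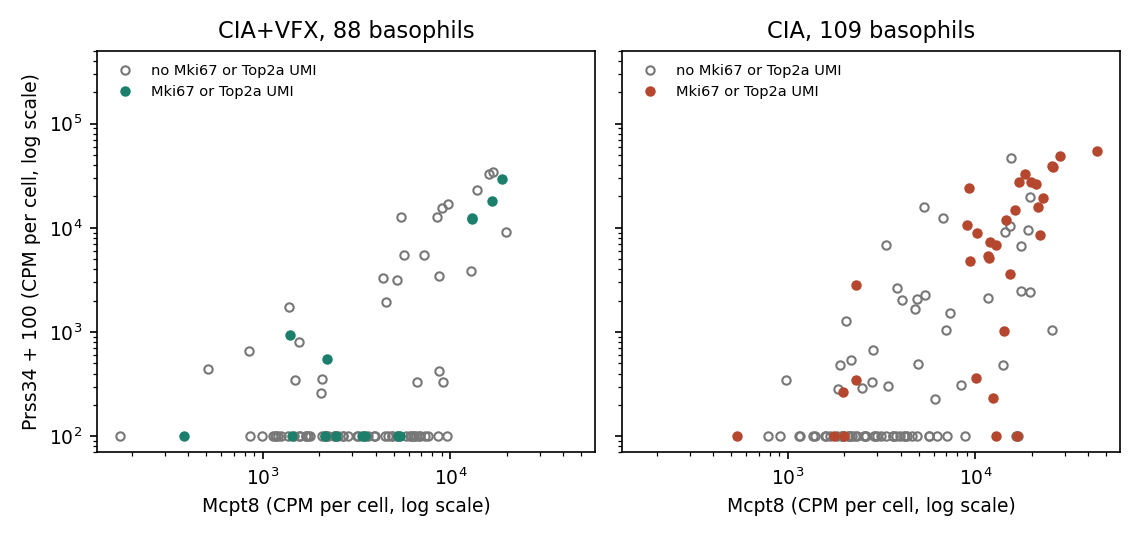
Prss34 (CPM per cell plus 100, log axis) against Mcpt8 (CPM per cell, log axis) in single basophils of CIA+VFX and CIA, 1 point per cell, filled for the 14 of 88 and 33 of 109 cells with a Mki67 or Top2a UMI. Cells without Prss34 lie on the bottom line at 100, and in CIA most filled points lie at high Mcpt8 and Prss34.

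Against mast cells, basophils differed in both directions in secreted factors and stood higher in most adhesion genes tested and lower in most amine handling genes tested. Mast cells were 36, 25 and 11 barcodes of CIA+VFX, CIA and Cont with at least 20 UMIs of their 3 proteases. Sums per library and cell type were compared with edgeR's quasi-likelihood test with the library as a block and Benjamini-Hochberg adjustment. Of 2178 genes tested 257 were higher in basophils (11.8%) and 511 lower (23.5%) at an adjusted p of 0.05, with 952 under an unadjusted p of 0.05. Without the Cont sums, or with no filter on low counts, the excess of lower genes was gone, as given below. Both cell types were picked from the same profiles by their proteases, and the genes of the rule were left out of these counts.

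Genes near 0 in mast cells led the higher side. Acod1 stood at 5917, 4589 and 5135 CPM in basophils of CIA+VFX, CIA and Cont, against 0 UMIs in mast cells of every library. Slpi, a secreted protease inhibitor, stood at 3616, 2890 and 321 CPM, also against 0 UMIs. Il1b stood at 12097, 13704 and 15244 CPM in basophils, against 8.21, 912 and 0 CPM in mast cells (log2 fold change 6.64, edgeR adjusted p = 1.92e-14). Ccl3 stood at 10007, 10413 and 14121 CPM, against 0, 340 and 0 CPM (log2 fold change 7.11, edgeR adjusted p = 1.98e-17). Itgam, the water and glycerol channel gene Aqp9, the kinase gene Txk, Serpinb2, Asb2, Gzmb, Ifitm1 and Pglyrp1, an antibacterial protein gene, completed the 12 highest. Of 32 secreted factors 21 were tested, 11 were higher in basophils and 4 lower. The chemokine genes among them were split: Ccl3, Ccl4, Ccl6, Ccl9 and Cxcl2 were higher in basophils, while Ccl2 had a log2 fold change of -7.79 (edgeR adjusted p = 2.52e-23) and Ccl7 of -6.76 (edgeR adjusted p = 8.15e-21). Of 11 tested adhesion genes 7 were higher and 2 lower, and of 6 tested genes of leukotriene and prostaglandin synthesis 4 were higher and 1 lower. Median log2 fold changes of these lists were 2.55, 3.26 and 2.92, beside -0.40 over all genes tested.

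The lower side held mast cell receptors, mediators and monoamine genes. Tpsab1, a tryptase, Tpsg1 and the receptor genes Mrgprb1 and Mrgprx2 were at 0 UMIs in basophils of every library. Mrgprb1, a receptor for secretagogues, was at 1395, 1524 and 1785 CPM in mast cells of CIA+VFX, CIA and Cont. Of 7 tested genes of amine handling 0 were higher and 5 lower in basophils. Tph1, which makes the serotonin precursor, was at 0 UMIs in basophils against 320, 231 and 331 CPM in mast cells, and Maob, which breaks down amines, at 0 UMIs against 640, 1034 and 430 CPM. Slc6a4 had a log2 fold change of -2.75. Cpa3 stood at 649, 995 and 802 CPM in basophils, against 11385.5, 12055 and 12925 CPM in mast cells (-4.28). Of 24 tested immediate early genes, which also respond to tissue dissociation, 18 were lower in basophils and 2 higher, with Fos at -3.80 and Egr1 at -4.18. Hs6st2 and Lsamp completed the 8 lowest.

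**Figure D5:**
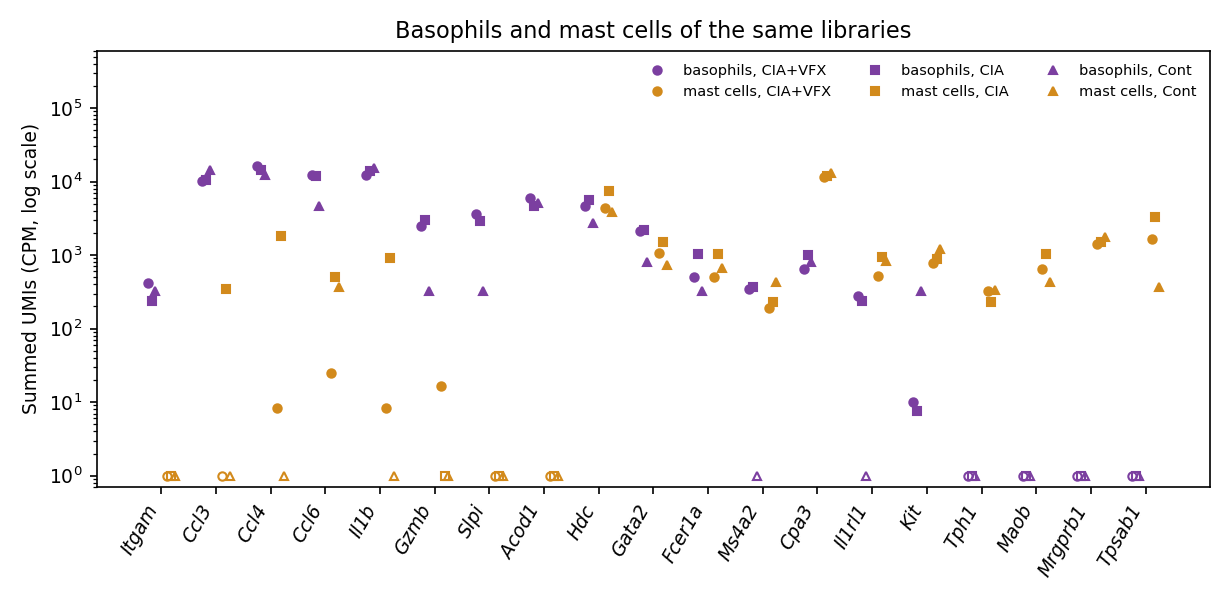
Levels of named genes (CPM, log axis) in basophils and in mast cells of the CIA+VFX, CIA and Cont libraries, with open symbols at the foot for 0 UMIs. Acod1, Il1b and Ccl3 stand higher in basophils in every library, and Cpa3 and Mrgprb1 stand higher in mast cells.

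Of 16 tested genes of the IgE receptor and its signalling 0 were higher in basophils than in mast cells and 2 lower. Over all genes tested 11.8% were higher and 23.5% lower. The list median was -0.37, beside -0.40 over all genes tested, so the list as a whole did not stand apart. The 2 lower genes were the kinase gene Lyn, with a log2 fold change of -2.27 (edgeR adjusted p = 0.00035), and Inpp5d. Inpp5d, a phosphatase gene that restrains the receptor, had -3.00 (edgeR adjusted p = 3.8e-06). Several genes shared by both cell types did not pass. Fcer1a had a log2 fold change of -0.51 (adjusted p = 0.43), Ms4a2 of 0.03 (0.97), Gata2 of 0.25 (0.72), Hdc of -0.67 (0.38), Slc18a2 of -0.37 (0.61), Cyp11a1 of -0.09 (0.90), Il4 of 0.81 (0.28) and Il13 of -0.16 (0.86) by the same edgeR test. A p that misses the threshold does not show equal levels, and Cont entered with 2 basophils. With the Cont libraries left out, 545 of 4355 genes were higher and 551 lower. The median log2 fold change over all genes tested was then 0.05 in place of -0.40. The excess of lower genes and the -0.40 median thus depend on the setting, and not on the Cont sums alone. With Cont kept and no filter on low counts, 256 of 14989 genes were higher and 262 lower, with a median of 0.27. With the CIA+VFX libraries left out, 91 of 969 were higher and 132 lower, with a median of 0.003. Median-of-ratios scaling and DESeq2 kept the excess, with medians of -0.37 and -0.39.

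Against all other kept cells, 1576 of 20022 genes were higher in basophils (7.87%) and 3653 lower (18.2%) by edgeR's quasi-likelihood test. The split depends on scaling: under median-of-ratios scaling 1023 were higher and 6892 lower, and the median log2 fold change of all genes was -1.82 in place of -1.13. All 18 basophil identity genes were higher, as were 17 of 23 genes of IgE receptor signalling, 18 of 29 tested secreted factors and 14 of 23 adhesion genes. Fcer1a led, at 507, 1022 and 321 CPM in basophils of CIA+VFX, CIA and Cont, against 0.729, 0.985 and 0.220 CPM in the rest. Cd200r3, Cyp11a1, Slc18a2, Acod1, Gata2, Ccl3, Hdc, Gzmb, Car8, Hgf and Aqp9 followed. Car8, a carbonic anhydrase relative, stood at 944, 907 and 481 CPM, against 3.42, 5.21 and 5.41 CPM. Of 30 interferon-induced genes 1 was higher and 11 were lower, and of 25 cell cycle genes 11 were higher and 0 lower. The 8 lowest were Nav3, Emp2, Lama4, Ccl21a, Slit2, Lum, Mir99ahg and Col1a2. Col1a2 and Lum, which encode matrix proteins of fibroblasts, stood at 16.3 and 2.03 CPM in CIA+VFX basophils, against 636 and 113 CPM in the rest.

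Comparisons of levels with Cont rest on 2 cells with 4493 and 1739 UMIs, and these differed from each other. Il1b had 95 UMIs in the first and 0 in the second, Ccl4 1 and 76, and Cd200r3 8 and 0, while Cxcl2 had 195 and 164, Il6 33 and 13 and Hdc 7 and 10. Of 2008 genes measured between CIA and Cont, 6.47% were at least 2-fold higher in CIA and 17.5% at least 2-fold lower. Of 1520 measured between CIA+VFX and Cont, 7.63% were higher and 16.6% lower. The split depends on the floor for 0 UMIs, on the minimum of UMIs and on scaling. For 938 of the 2008 and 569 of the 1520 genes, 1 library had 0 UMIs and was set to 3 counts. Such a gene at 0 in Cont passes as higher less easily than a gene with 1 Cont UMI passes as lower. At a minimum of 200 UMIs, 130 were higher and 69 lower of 523 in CIA, and 99 and 43 of 414 in CIA+VFX. TMM scaling moved every log2 ratio over Cont up by 1.26 in CIA and 1.15 in CIA+VFX. It gave 480 higher and 73 lower in CIA and 443 higher and 42 lower in CIA+VFX. These comparisons share the Cont cells. Prss34 was 19.4-fold higher in CIA and 7.82-fold higher in CIA+VFX with its 0 UMIs in the 2 Cont cells set to 3 counts. The counting interval began at 15.8-fold and 6.35-fold. It covers UMIs and not cells: only 61 of 109 CIA and 31 of 88 CIA+VFX basophils held a Prss34 UMI. So 2 Cont cells without one do not fix a fold. Ccl6, at 11769 CPM in CIA and 4653 CPM in Cont, had a log2 ratio of 1.34, and Hgf of 2.07. Crip1, Gzmb, Gapdh, Slpi and Rack1 were the other leading genes of CIA over Cont, and Slpi, Crip1, Cst3, Gzmb and Samsn1 of CIA+VFX over Cont.

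Cxcl2 stood lower in both model libraries than in the 2 Cont basophils, at 12445 CPM in CIA+VFX and 9762 CPM in CIA, against 57606 CPM in Cont. The log2 ratio over Cont was -2.21 (-2.36 to -2.05) for CIA+VFX and -2.56 (-2.71 to -2.40) for CIA, and -1.06 and -1.30 under TMM scaling. The medians per cell were 35 UMIs in CIA+VFX and 21 in CIA, with highest cells of 585 and 547, so that the 195 and 164 UMIs of the Cont cells lay inside the range of the others. Over all kept barcodes Cxcl2 was at 444 CPM in CIA+VFX, 634 CPM in CIA and 1055 CPM in Cont. Both model libraries again stood below Cont, but CIA+VFX there stood below CIA. In the 6 Cont barcodes found by the 3-gene rule alone it was at 39170 CPM, against 8990 CPM in the 24 of CIA+VFX and 5865 CPM in the 15 of CIA.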

How the data were processed

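The deposited values are raw UMI counts of genes in single barcodes, 1 sparse matrix for each library. They came out of Cell Ranger 8.0.1, as its file headers and the submitters' processing notes say. The same notes name GRCm39 and FastQC 0.11.7. No correction for free RNA and no doublet removal is given in the sources used here, and no doublet caller was run. All 3 matrices hold 33696 genes. The tables of promoter sequences were of another build, GRCm38.p6, so they were matched by gene symbol.

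The members, gene lists and tests were chosen with earlier results of these data known. UMIs of basophils were summed per library and scaled to CPM. Log2 ratios had exact conditional binomial intervals and no pseudocount. Genes with at least 50 UMIs over the pair counted as measured, and a level of 0 was bounded with 3 counts. Shares had exact (Clopper-Pearson) intervals and levels exact Poisson intervals. PCR duplicates are collapsed by UMIs, and intervals cover counting error only. For shares of cells with a UMI each cell was thinned to 1000 UMIs, leaving out 0 CIA+VFX, 1 CIA and 0 Cont basophils.

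Basophils were set against mast cells and against all other kept barcodes with edgeR 4.0.16 on sums per library (quasi-likelihood test, TMM scaling, low counts filtered with filterByExpr, library as a block, adjusted p of 0.05). DESeq2 1.42.0 was an alternative. Fitted fold changes of genes at 0 UMIs in 1 cell type are not given. Named genes were, per list, those with the largest ratios. In each pair of libraries they were also the 6 highest and 6 lowest ratios with at least 30 UMIs, 100 CPM and 5 cells in the higher library, an interval that leaves out a ratio of 1 and a CPM at least 0.5 times that of all its kept barcodes. Between cell types they were the 12 highest and 8 lowest with at least 100 CPM in the higher type of every library. Defining basophil genes were always named, and mitochondrial, ribosomal and unnamed genes never by ratio. Code ran in Python 3.11.15 (numpy 2.4.6, pandas 2.3.3, scipy 1.17.1, matplotlib 3.10.9) and R 4.3.3 and was tested on simulated data. Values of 1 gene of the lists are not reported here.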

Additional observations from a re-analysis of the deposited data

Results flagged for a closer look

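Some barcodes with at least 3 Mcpt8 UMIs lay outside the rule and so in no comparison. In CIA, 6 were left out because they held at least 10 UMIs of Krt5 and Krt14. A further 2 in CIA+VFX and 1 in CIA were left out because fewer than 500 genes were detected. Cont had 0 of either kind.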

How the results depend on the processing

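No paired analysis was possible because each group is 1 library and the labels carry no replicate numbers. In the fits across cell types the library was a block. With no replicate block 592 of 1654 tested genes differed between basophils and mast cells (768 of 2178 with it). Between basophils and all other cells 5494 of 19286 differed (5229 of 20022 with it).

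The shares of both model libraries stood above that of Cont under every setting run. CIA+VFX over CIA ran from 0.652 (Mcpt8 of at least 10) to 1.03, CIA over Cont from 10.8 to 77.7 and CIA+VFX over Cont from 10.6 to 67.9, the lowest values against Cont being those of the 3-gene rule. Against Cont, Mcpt8 of at least 10 left 0 basophils and gave no value.

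Genes at least 2-fold apart in CIA+VFX over CIA numbered 228 of 3071 measured. The number of measured genes changed with the setting, so each count is given with it. Without cells that carried other types' RNA there were 117 of 1662 (46 of them among the 228). Without cycling cells there were 76 of 1935 (38), and after thinning 29 of 621 (9). Minima of 20 and 200 UMIs gave 720 of 5392 and 40 of 869, and 1.5-fold gave 767 of 3071. For CIA over Cont there were 482 of 2008. The same settings gave 289 of 1024 without other types' RNA, 292 of 1017 without cycling cells and 101 of 356 after thinning. Minima of 20 and 200 UMIs gave 825 of 4047 and 199 of 523, and the 3-gene rule 788 of 1972. For CIA+VFX over Cont there were 368 of 1520, with 230 of 754 without other types' RNA and 83 of 325 after thinning. Minima of 20 and 200 UMIs gave 690 of 3200 and 142 of 414, and 1.5-fold gave 561 of 1520. TMM scaling moved the split against Cont to 480 higher and 73 lower in CIA, and 443 higher and 42 lower in CIA+VFX. Between basophils and mast cells, leaving out a library gave from 223 of 969 tested genes to 1096 of 4355. Mcpt8 of at least 10 gave 1200 of 3586. Against all other cells, leaving out a library gave from 2624 of 19635 to 4117 of 19667. Median-of-ratios scaling gave 7915 of 20022 and DESeq2 2983 of 20022.

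Log2 ratios of CIA+VFX over CIA reversed as follows. Without cycling cells they were 0.062 for Prss34, 0.18 for Stmn1, 0.078 for Bst2, 0.078 for Dut, 1.08 for F13a1 and 1.27 for Ifi27l2a. Without cells that carried other types' RNA they were 0.037 for Hspb1, 0.15 for Tnf, 1.44 for C1qb, 2.02 for F13a1, 0.92 for Ifi27l2a, -0.40 for Cd74, -0.79 for H2-Aa and -2.15 for H2-Ab1. With 6 genes taken out of those lists they were 1.51 for C1qb, 0.51 for F13a1, 0.33 for Ifi27l2a, -0.27 for Cd74 and -1.81 for H2-Ab1. After thinning they were -0.016 for Cd74, -0.93 for H2-Aa and -1.16 for H2-Ab1, and as a mean over cells -0.19 for Cd74 and -0.20 for H2-Ab1, which stood at -0.81 without deep cells. With Fcer1a or Ms4a2 also required they were 1.38 for F13a1 and 0.88 for Ifi27l2a, and with Mcpt8 of at least 10 -0.58 for Thbs1 and 4.96e-05 for Tnf. The cause was not tested. Depth limits Cont most, where 2 cells gave 6232 UMIs.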
